A study of Mus musculus with 21 samples.

Results

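The 10 iron handling genes described here are Scara5, Hamp, Bmp6, Hfe, Tfr2, Trf, Tfrc, Slc40a1, Fth1 and Ftl1, out of 21887 protein-coding genes of the RefSeq mouse annotation. The group was chosen by the presence of C/EBPα peaks at Scara5 in KO and WT lists, which had already been seen to differ, so the C/EBPα contrast at these genes is a description and carries no test. Each gene is taken as its RefSeq gene body on the mm10 build plus 25 kb on each side, called its locus. Peaks were listed by position in 4 C/EBPα lists, 6 H3K4me2 lists and 1 V5-ARID1A list. The C/EBPα peaks of the 4 lists, merged where they shared at least 1 bp, made 27244 regions in the genome, and 48 of them lay in the 10 loci.

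The lists come from chromatin immunoprecipitation with sequencing (ChIP-seq) on perfused primary hepatocytes from livers of mice of mixed C57/B6 and 129 background at postnatal day 90. KO denotes mice with the genotype Arid1a Fl/Fl; Alb-cre, in which the albumin promoter drives Cre recombinase in hepatocytes, and WT denotes Arid1a Fl/Fl mice without Cre, so that both genotypes carry the floxed allele. C/EBPα was mapped in 2 KO and 2 WT libraries and dimethylated lysine 4 of histone H3 (H3K4me2) in 3 KO and 3 WT libraries. ARID1A was mapped through its V5 tag in 1 library of V5-Arid1a mice, which have neither of the other genotypes. The labels do not say whether replicates were separate animals, so p-values measure the spread between these samples, which may be technical.

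Iron reaches hepatocytes bound to transferrin and leaves them through ferroportin, and hepatocytes keep the surplus in ferritin shells. The liver also sets the iron level of the body, because hepatocytes secrete the peptide hormone hepcidin, which makes cells take ferroportin off their surface. Hepcidin transcription follows bone morphogenetic protein (BMP) ligands from neighbouring endothelial cells, an inflammatory signal through STAT3, and transcription factors of the hepatocyte that include C/EBPα. ARID1A belongs to SWI/SNF, a complex that moves nucleosomes, and H3K4me2 marks promoters and enhancers.

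C/EBPα regions covered the whole of the 250 bases before the start at 4 of these genes, and those sequences are shown because the regions over them are described below. RefSeq promoters of GRCm38.p6 (mm10) were matched for 7 of the 10 members, and Scara5, Trf and Slc40a1 are named without one. Capitals mark the C/EBP motif TTNNGCAA (TTGCNNAA on the other strand), the BMP response element core GGCGCC, which reads the same on both strands, or the STAT motif TTCNNNGAA, likewise its own reverse complement. The Hamp promoter is chr7:30944030-30944279 on the minus strand, Tfrc chr16:32608646-32608895 on the plus strand, the second annotated start of Fth1 chr19:9982396-9982645 on the plus strand, and Ftl1 chr7:45459887-45460136 on the minus strand, all written 5′ to 3′.
Hamp: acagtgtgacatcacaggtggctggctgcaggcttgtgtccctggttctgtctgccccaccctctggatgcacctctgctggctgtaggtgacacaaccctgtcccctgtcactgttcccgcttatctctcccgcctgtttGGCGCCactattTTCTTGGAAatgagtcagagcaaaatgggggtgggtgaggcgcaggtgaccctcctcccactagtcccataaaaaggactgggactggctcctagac
Tfrc: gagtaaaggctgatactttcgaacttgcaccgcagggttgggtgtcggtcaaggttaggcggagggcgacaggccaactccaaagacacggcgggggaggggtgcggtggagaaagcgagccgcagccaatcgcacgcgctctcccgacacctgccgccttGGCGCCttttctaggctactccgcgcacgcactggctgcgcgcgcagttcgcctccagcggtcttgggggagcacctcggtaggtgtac
Fth1: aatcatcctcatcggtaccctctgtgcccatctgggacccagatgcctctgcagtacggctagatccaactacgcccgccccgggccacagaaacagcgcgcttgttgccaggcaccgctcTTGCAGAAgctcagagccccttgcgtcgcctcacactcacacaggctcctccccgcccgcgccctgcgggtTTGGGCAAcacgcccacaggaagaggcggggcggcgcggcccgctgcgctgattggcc
Ftl1: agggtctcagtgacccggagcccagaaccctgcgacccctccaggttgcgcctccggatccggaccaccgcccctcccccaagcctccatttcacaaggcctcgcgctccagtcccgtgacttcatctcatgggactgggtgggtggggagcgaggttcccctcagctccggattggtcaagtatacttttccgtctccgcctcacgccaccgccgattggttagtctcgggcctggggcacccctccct
The Hamp promoter held GGCGCC 109 to 104 bases before the start and TTCTTGGAA 97 to 89 bases before it, next to each other without overlap. Tfrc held GGCGCC 89 to 84 bases before its start. Fth1 held 2 C/EBP matches, TTGCAGAA at 129 to 122 and TTGGGCAA at 58 to 51 bases before the start, and in Ftl1 none of the letters searched occur in this window. Of 32851 promoters of the same length from 27025 genes, 9.56% hold the C/EBP motif, 9.59% the BMP element and 7.02% the STAT motif, the last of which was added after the sequences had been read. A match describes letters and not a bound site.

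The C/EBPα lists hold 16178 and 17781 peaks in KO and 17733 and 23646 in WT. The H3K4me2 lists hold 24908, 54544 and 175797 peaks in KO and 34849, 61246 and 49802 in WT, and cover 28.0, 85.6 and 102 Mb in KO and 48.4, 91.9 and 51.7 Mb in WT. KO list 3 of H3K4me2 stands apart, with the most peaks and the lowest median fold over background as the authors give it (2.62, against 3.73 to 5.13 in the other 5 lists). Read depth is unknown, so a missing peak means that none was called or kept there, not that the protein was absent. All 7 hepatocyte markers had an H3K4me2 peak at their start in every list, against 0 to 2 (KO) and 0 to 1 (WT) of 6 Kupffer cell and leukocyte markers, 0 to 5 (KO) and 2 to 5 (WT) of 5 endothelial markers, 1 to 4 (KO) and 3 to 5 (WT) of 6 stellate cell and fibroblast markers and 1 to 3 (KO) and 3 (WT) of 5 biliary markers. C/EBPα had a peak at the start in all 4 lists at 3 of the 7 hepatocyte markers and at none of the markers of other cell types. At the start of Arid1a itself H3K4me2 had a peak in all 6 lists, which does not check its deletion. In such mixtures fewer cells of a type and less binding per cell cannot be told apart.

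Scara5 encodes a scavenger receptor known to bind ferritin, and it spans 98.4 kb on chromosome 14 (chr14:65666403-65764826). Its locus had 1 and 2 C/EBPα peaks in the KO lists and 11 and 9 in the WT lists, so the genotypes did not overlap. Peaks covered 0.297% and 0.474% of the locus in KO and 3.10% and 2.42% in WT, or 0.385% ± 0.125 in KO and 2.76% ± 0.480 in WT (SD, n = 2 each). Lost describes a region with a peak in neither KO list and in both WT lists, and gained the reverse. At Scara5, 7 of the 9 regions found in both WT lists were lost (77.8%) and 0 were gained. Over the genome 19.3% of such regions were lost, and 5.27% of the regions in both KO lists were gained. The loss was what chose Scara5, and nothing is read from its size against that background.

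All 7 lost regions lay inside the gene body. Counted from the low-coordinate end of the locus, the first was chr14:65715254-65715650, and the next were chr14:65716105-65716643, chr14:65719269-65719746, chr14:65720357-65720788 and chr14:65722439-65722776. These 5 lay within 7523 bp. The remaining lost regions were chr14:65736117-65736549 and chr14:65759412-65759848, so the whole set spanned 44595 bp with gaps of 454 to 22862 bp between neighbours. They were 338 to 539 bp wide with a median of 433 bp, between the medians of all lost regions (387 bp) and of all regions present in all 4 lists (525 bp). A lost region merges peaks of 2 lists and a region present in all 4 merges peaks of 4, so the latter is wider partly by construction. Ranked by width among the peaks of their own list, the WT peaks of the 7 lost regions stood between percentile 9.43 and 79.8 with a median of 56.8. The narrowest was that at 65722439, at percentile 9.43 in WT list 1 and 14.7 in WT list 2, and the widest that at 65716105, at 77.8 and 79.8.

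The other 4 regions at Scara5 kept a peak in a KO list or were seen in a single WT list. WT list 1 alone held chr14:65696047-65696389 and chr14:65718263-65718708. Beyond the high-coordinate end of the gene by 8336 bp, chr14:65773162-65773647 had a peak at percentile 17.6 in KO list 2, none in KO list 1, and peaks at 69.5 and 72.0 in the WT lists. At 24151 bp beyond the gene, chr14:65788977-65789429 was present in all 4 lists, at percentiles 55.8 and 50.6 in KO and 68.0 and 69.4 in WT. It is the member region of Scara5 nearest to the edge of its window, and the next one outside, at 33992 bp, had a peak in 1 WT list. Across the other genes the nearest regions on either side of the edge were at 24905 bp (Bmp6, present in all 4 lists) and at 25138 bp (Tfrc, likewise present in all 4).

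**Figure D1:**
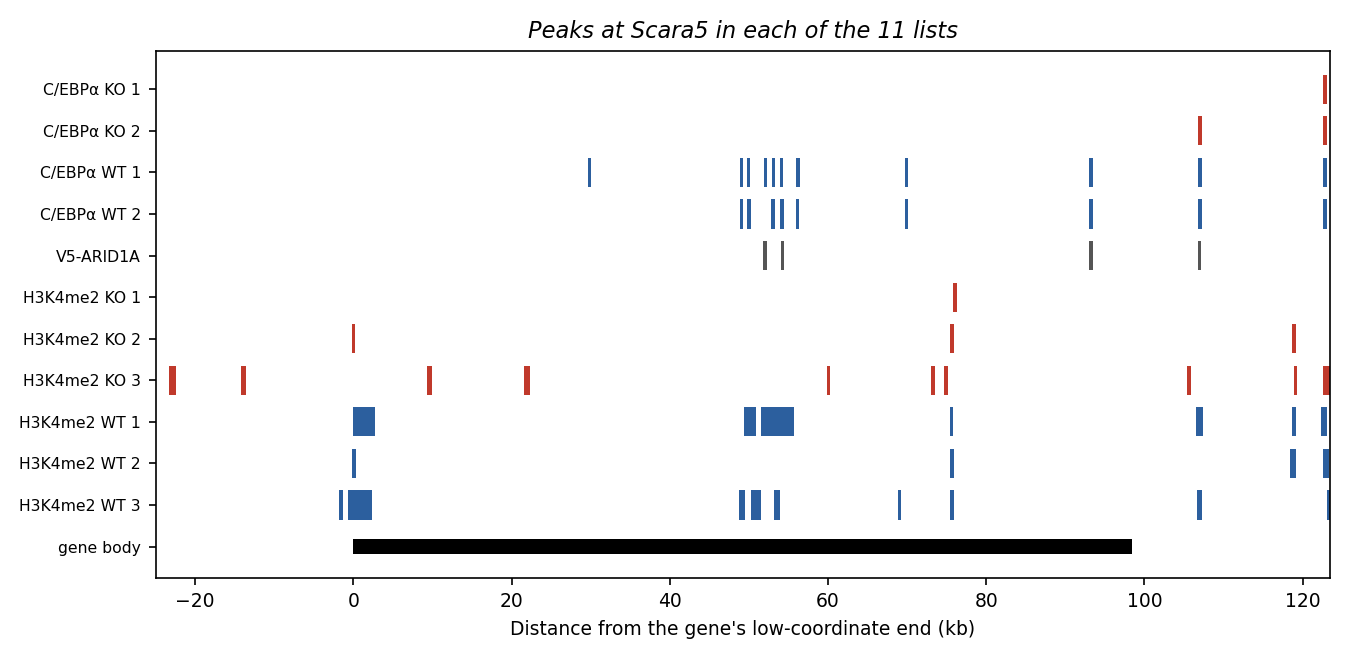
Peaks at Scara5 in each of the 11 lists, plotted by distance in kb from the low-coordinate end of the gene, with KO lists in red above WT lists in blue and the V5-ARID1A list in grey. Boxes narrower than a set minimum are widened to be visible, the black bar is the gene body, and the 11 and 9 WT C/EBPα peaks stand against 1 and 2 KO peaks.

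H3K4me2 was read at the same places. None of the 7 lost C/EBPα regions overlapped an H3K4me2 peak in any of the 3 KO lists. Of the 7, 4 overlapped one in at least 1 WT list, 3 in WT list 1, 3 in WT list 3 and 0 in WT list 2. The share of all lost regions in the genome with such a peak is not given here, so nothing is read from these counts. Within the 7523 bp that hold the first 5 lost regions, peaks covered 0, 0 and 0 bp in KO and 5655, 0 and 2594 bp in WT. The WT libraries thus differed among themselves, and WT list 2 matched the KO lists here. At the low-coordinate end of the gene, KO list 2 had a peak of 156 bp and KO lists 1 and 3 none within 1 kb, while the WT lists had peaks of 2737, 342 and 3017 bp. At 75479 to 75743 bp into the gene, KO lists 1 and 2 and all 3 WT lists had a peak.

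ARID1A had 4 peaks at Scara5, and each lay on a C/EBPα region. How many of all V5 peaks lie on such a region is not given here, so this is no trait of Scara5. The peaks at chr14:65720490-65720740 and chr14:65759526-65759774 lay on lost regions, that at chr14:65718327-65718538 on a region of WT list 1 alone, and that at chr14:65773216-65773530 on the region beyond the gene that was held by KO list 2 and both WT lists. So 2 of the 7 lost regions overlapped an ARID1A peak, while over the genome 6.08% of lost regions and 30.9% of regions present in all 4 lists did. With 1 V5 library there is no replicate of these positions, and 1 of the 4 was left once V5 peaks narrower than the median V5 peak were dropped.

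Set beside all genes, Scara5 had the most lost regions. It was chosen for these losses, so its rank is a description and supports nothing further. Of 9949 genes with a region in both WT lists, 27.1% had at least 1 lost region and 0.0101% had at least 7, which is Scara5 alone. The genes next in that order were Pde4b with 6 lost of 9 regions, Capn8 with 5 of 5, Fam222a with 5 of 5 and Fhit with 5 of 7. They are 4 of the 7 genes with 5 or 6 lost regions, ordered by the lost share where counts were equal, and the others were Pard3b (5 of 7), Thada (5 of 10) and Ptprg (5 of 13). Pde4b, a cyclic AMP phosphodiesterase, had 2 and 2 C/EBPα peaks in KO and 9 and 13 in WT. Capn8, a calpain protease, had 0 and 0 in KO and 5 and 7 in WT, and Fam222a 0 and 0 in KO and 5 and 6 in WT. Scara5 at 98.4 kb is longer than the median of 24.6 kb over these 9949 genes. Taken as a share, 6 of the 913 genes with at least 5 regions in both WT lists had a lost share of 77.8% or more, Scara5 included.

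**Figure D2:**
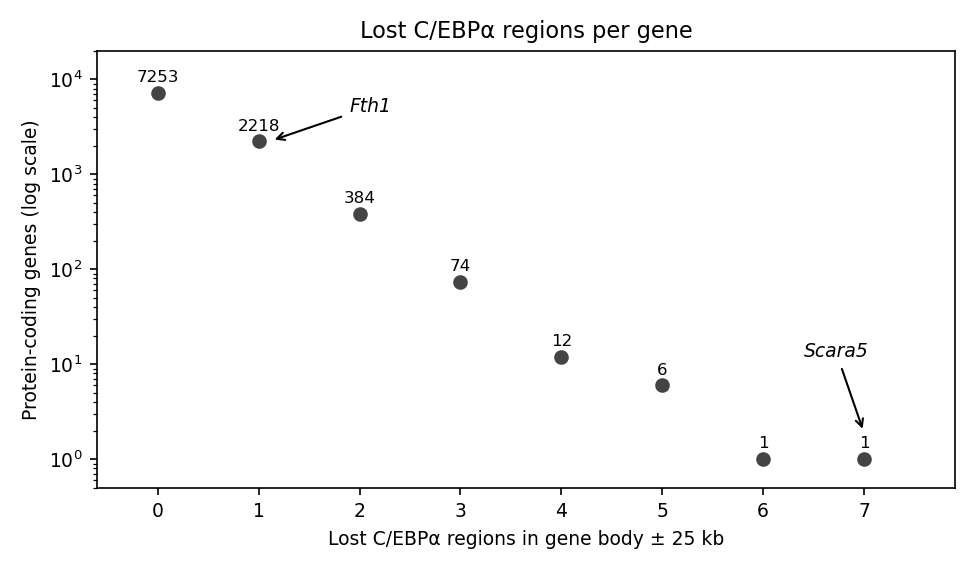
Number of protein-coding genes (log scale) against the number of lost C/EBPα regions in the gene body plus 25 kb on each side, for the 9949 genes with a region in both WT lists. The points stand for 7253 genes with 0 lost regions, 2218 with 1, Fth1 among them, and 1 gene, Scara5, with 7.

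The other 9 iron genes showed another pattern. Of their 37 regions, 24 were in both WT lists and 27 in both KO lists, and 22 were present in all 4. There was 1 lost region, at Fth1, of the 24 in both WT lists, beside 19.3% over the genome. There were 0 gained of the 27 in both KO lists, beside 5.27%. So 1 of the 9 genes had a loss and 0 a gain. Over the genome 27.1% of genes with a region in both WT lists had a loss, and 13.4% of genes with a region in both KO lists a gain. The genes were chosen with this contrast known, so these counts are a description. Of the 14 regions with any other pattern, 5 were missing from WT list 1 alone, 3 were in WT list 2 alone and 1 was in WT list 1 alone. WT list 2 is the longest list. Without it 2 regions at these 9 genes were lost and 5 gained, and without WT list 1 there were 4 lost and 0 gained. Leaving out a list relaxes both rules, so these counts can only stay or rise. Every one of the 22 regions present in all 4 lists overlapped an H3K4me2 peak in at least 1 KO and 1 WT list, and 10 of them did in all 6 lists. Without the matching share over the genome, these counts are not read as particular to iron genes.

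**Figure D3:**
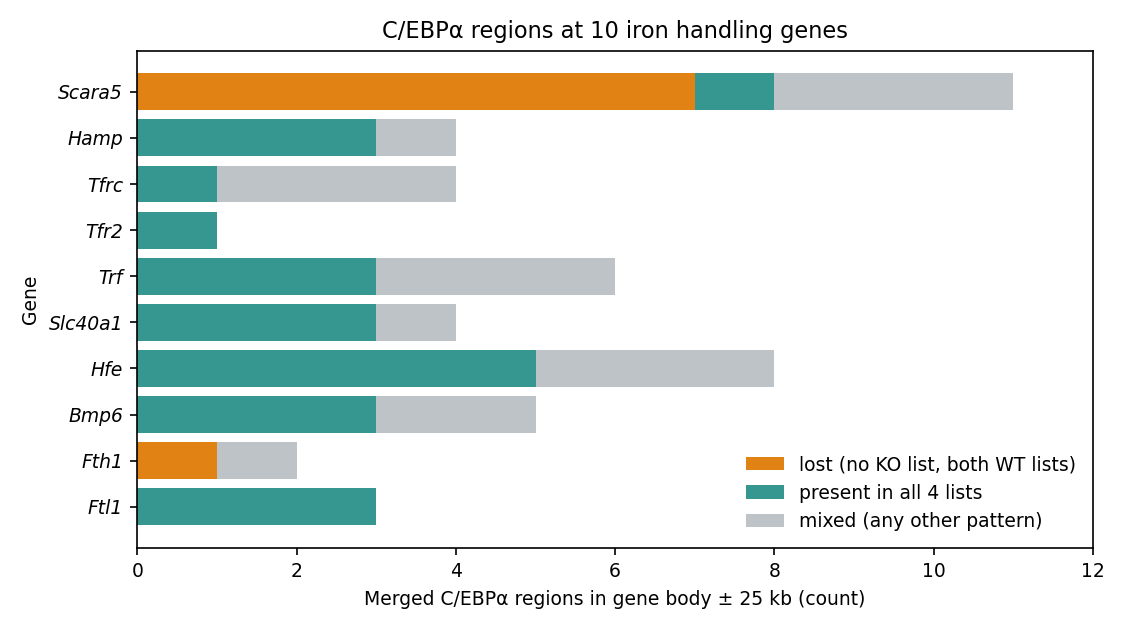
Number of merged C/EBPα regions in the gene body plus 25 kb on each side of the 10 genes, split into lost, present in all 4 lists and any other pattern. Scara5 has 7 lost of 11 regions and Fth1 1 of 2, and the other 8 genes have none.

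Of the 10 members, Hamp and the genes that act upstream of it (Bmp6, Hfe and Tfr2) had no lost C/EBPα region. Of the 9949 genes with a region in both WT lists, 7253 had none, so this is no trait of these genes. Hamp, which encodes hepcidin, had 3 and 3 peaks in KO and 3 and 4 in WT. Its promoter lay in chr7:30943957-30944731, present in all 4 lists with peaks at percentiles 21.2 and 50.1 in KO and 48.6 and 95.9 in WT, which overlap because WT list 1 falls between the KO lists. This region covers all 250 bases printed above, GGCGCC and TTCTTGGAA included. Both other regions present in all 4 lists lay over the neighbouring gene Usf2, a transcription factor gene. Of these, chr7:30945357-30945813 was wider in KO (59.9 and 57.9) than in WT (47.8 and 50.3), and chr7:30949721-30950343 was narrower in KO (27.6 and 53.4) than in WT (87.8 and 77.3). Mouse has a close copy of Hamp, Hamp2, and the sources used here do not say how reads that match both were placed.

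Bmp6, the ligand that endothelial cells of the liver send to hepatocytes, had 3 and 4 peaks in KO and 4 and 5 in WT. None stood at its start. The region chr13:38377356-38377779, inside the gene, was near to a loss, with no peak in KO list 1, one at percentile 5.26 in KO list 2 and peaks at 61.2 and 45.7 in WT. At 24905 bp before the gene, chr13:38320289-38320811 was present in all 4 lists and narrower in KO (42.4 and 39.9) than in WT (82.3 and 79.7). H3K4me2 stood at the start of Bmp6 in KO lists 2 and 3 and WT list 2. The endothelial markers were counted above, and their part in the Bmp6 values was not tested.

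Hfe and Tfr2 encode partners in the sensing of transferrin-bound iron at the hepatocyte surface. Hfe had 8 and 6 peaks in KO and 6 and 6 in WT, with 5 regions present in all 4 lists. One of them, chr13:23709675-23710206, lies inside the gene 648 bp from its start, while 3 of the others lie over the neighbouring histone genes H2ac6, H2bc4 and H4c3 and cannot be assigned to Hfe by position. Tfr2 had 1 peak in every list, all in chr5:137580230-137580713 inside the gene, where ARID1A also had a peak. It stood at percentiles 41.2 and 31.3 in KO and 59.2 and 75.5 in WT, so that both KO peaks were narrower.

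The members that carry iron between cells, Trf, Tfrc and Slc40a1, had no lost region either, like most genes with a region in both WT lists. Trf encodes transferrin, the plasma carrier made by hepatocytes, and had 5 and 6 peaks in KO and 4 and 7 in WT. The region over its high-coordinate end, chr9:103229943-103230587, was present in all 4 lists (82.4 and 88.1 in KO, 84.6 and 89.8 in WT). At 3603 bp beyond that end, chr9:103233889-103235034 held 2 ARID1A peaks, and its widest peak stood at percentiles 97.4 and 98.8 in KO and 80.6 and 84.1 in WT. Each KO list has 1 peak there and each WT list 2, and from the first base to the last they span 965 and 1084 bp in KO and 907 and 972 bp in WT. At 438 bp outside the opposite end, chr9:103207520-103208438 was wide in KO (96.6 and 93.2), absent from WT list 1 and at 63.4 in WT list 2.

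Tfrc encodes the transferrin receptor that takes up loaded transferrin. It had 2 and 2 peaks in KO and 2 and 3 in WT. The region over its start, chr16:32608558-32608977, had peaks at percentiles 49.7 and 37.0 in KO, none in WT list 1 and one at 33.2 in WT list 2. It covers the promoter printed above, an ARID1A peak overlapped it, and H3K4me2 had a peak there in all 6 lists. The 1 region present in all 4 lists, chr16:32645272-32645794, lies over the neighbouring gene Tnk2.

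Slc40a1 encodes ferroportin, the iron exporter that hepcidin acts on, and had 3 and 4 peaks in KO and 3 and 4 in WT. At chr1:45924446-45925369, inside the gene and 1163 bp from its high-coordinate end, all 4 lists held a peak, at percentiles 96.4 and 97.1 in KO and 49.9 and 55.1 in WT. This gap of 44.3 percentile points between the means was the widest of the 22 regions present in all 4 lists at these 9 genes. Another region inside the gene, chr1:45920551-45921048, stood at 66.1 and 67.8 in KO and 58.2 and 47.1 in WT and overlapped an ARID1A peak. Among the 23 regions of all 10 genes present in all 4 lists, 7 were wider by percentile in both KO lists than in both WT lists and 4 were narrower, where 14.7% and 27.8% of such regions were over the genome. These widths belong to the contrast that chose the genes and are given as a description.

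Ferritin is built of a heavy chain, encoded by Fth1, which oxidises iron on entry, and a light chain, encoded by Ftl1, which helps it mineralise. Fth1 had 1 and 1 peaks in KO and 1 and 2 in WT, but not at one place. The region chr19:9984676-9985039, 72 bp inside the high-coordinate end of the gene, was lost, with narrow peaks at percentiles 14.3 and 32.3 in the WT lists. The region over the second annotated start, chr19:9982275-9982779, had peaks at 38.9 and 69.8 in KO, none in WT list 1 and one at 56.1 in WT list 2, and covers both C/EBP matches printed above. H3K4me2 had a peak over that start in all 6 lists and over the lost region in KO lists 2 and 3 and all 3 WT lists. Once C/EBPα peaks narrower than the median over the 4 lists were dropped, the loss at Fth1 was gone and 3 of the 7 at Scara5 remained. In that setting the region beyond Scara5 at 65773162 and that inside Tfr2 counted as lost, and Hamp and Hfe had 1 gained region each.

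Ftl1 had 3 peaks in every list, and its 3 regions were present in all 4. That over the start, chr7:45459700-45460390, stood at percentiles 89.1 and 87.2 in KO and 77.8 and 73.2 in WT. The region chr7:45456761-45457594, 350 bp beyond the other end, overlapped an ARID1A peak and stood at 94.7 and 94.7 in KO and 92.5 and 95.6 in WT. Ferritin genes have many processed copies in the mouse genome, and the sources do not say how reads shared with them were placed.

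The share of each locus covered by C/EBPα peaks ran both ways among the 10 genes. It was lower in both KO lists than in both WT lists at 5 of them and higher at 3, where 22.7% and 22.3% of all genes with a C/EBPα peak showed each pattern. Besides Scara5, the lower ones were Hamp at 2.21% and 2.38% in KO and 2.61% and 3.88% in WT, Bmp6 at 0.486% and 0.639% in KO and 0.660% and 0.888% in WT, and Tfrc and Tfr2, with differences of -0.369 and -0.125 percentage points (KO minus WT). With 10 kb on each side in place of 25 kb the Tfrc difference turned to 0.498. The higher ones were Trf at 4.56% and 5.06% in KO and 2.31% and 4.34% in WT, Slc40a1 at 2.71% and 3.40% in KO and 1.78% and 2.40% in WT, and Ftl1 at 4.17% and 4.10% in KO and 3.38% and 3.59% in WT. Hfe and Fth1 overlapped between genotypes. In these units the difference at Scara5, -2.38 percentage points, was the farthest from 0 of the 10.

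**Figure D4:**
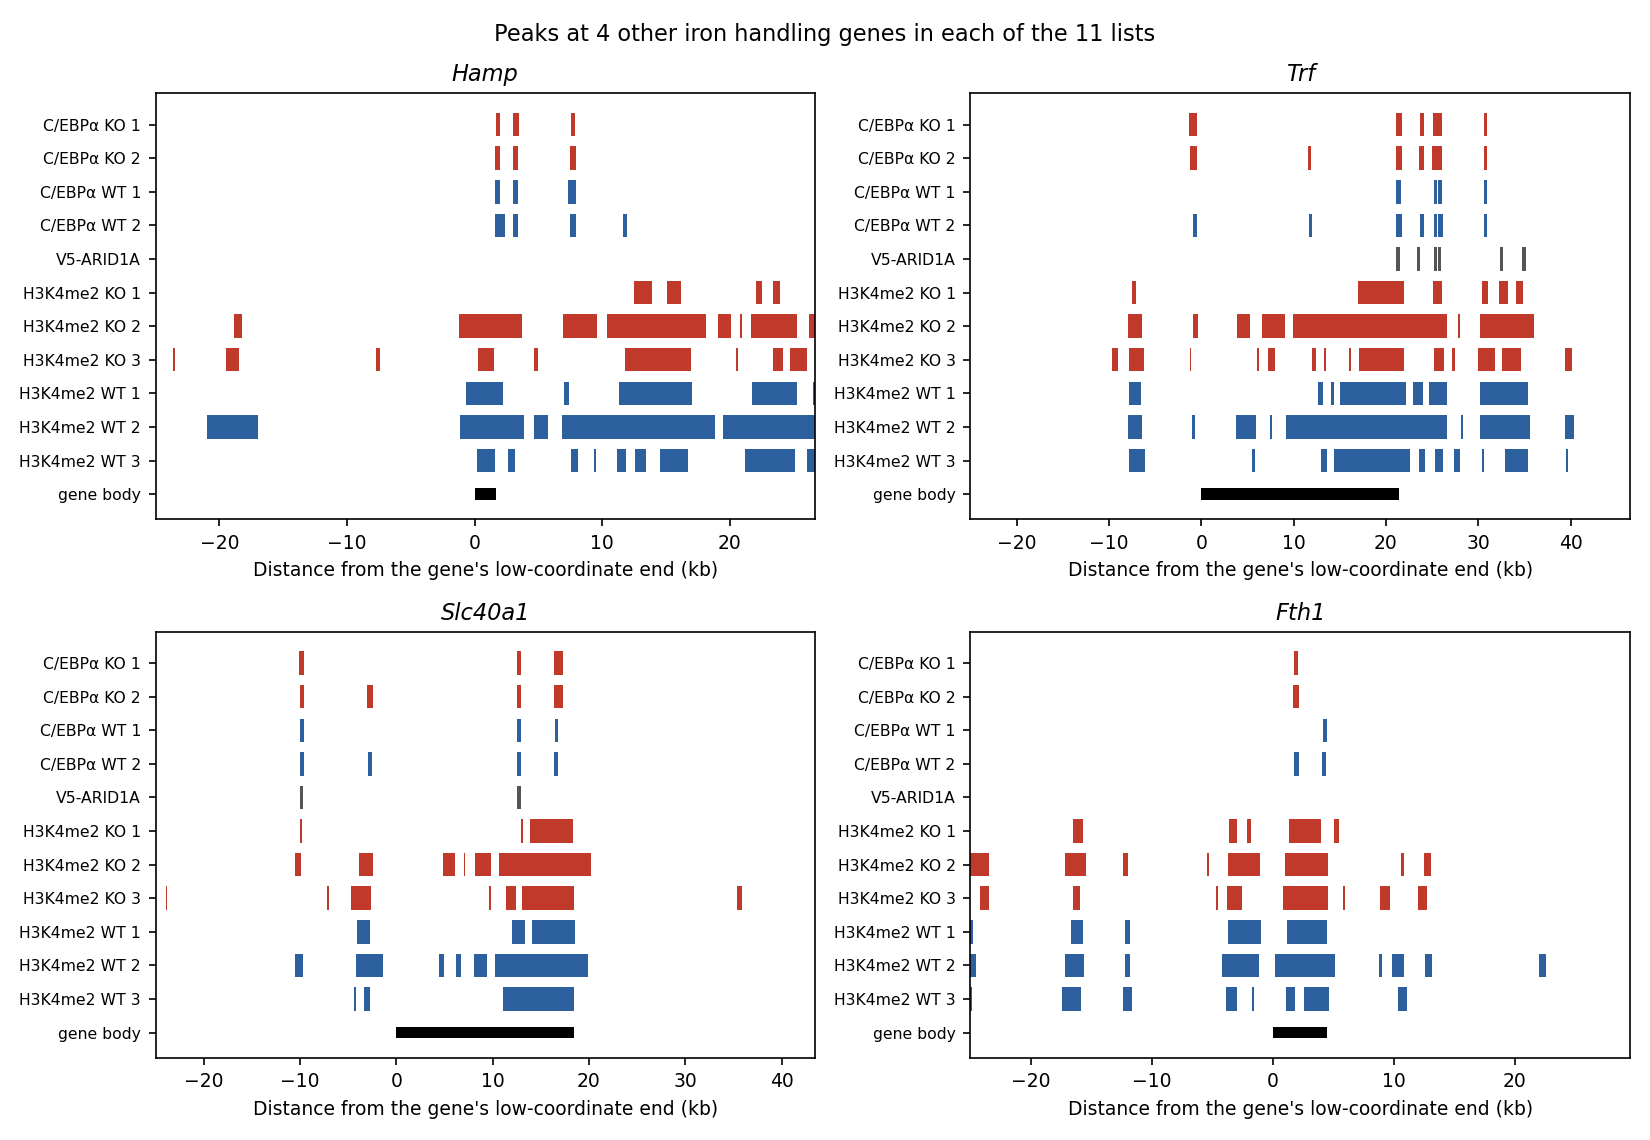
Peaks at Hamp, Trf, Slc40a1 and Fth1 in each of the 11 lists by distance in kb from the low-coordinate end of the gene, drawn as for Scara5 with KO lists in red above WT lists in blue. Hamp, Trf and Slc40a1 have 3 C/EBPα regions each in all 4 lists and further ones in some lists, and at Fth1 the column near the high-coordinate end is held by the 2 WT lists.

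H3K4me2, which the choice of the other 9 genes did not use, was compared as the share of each locus lying in peaks. The exact two-sided permutation test over the 3 KO and 3 WT libraries cannot go below p = 0.1, and 0 of 20820 genes passed an adjusted p of 0.05 (Benjamini-Hochberg) or an unadjusted p of 0.05. Peaks covered 7.01%, 40.9% and 20.2% of the Hamp locus in KO and 24.5%, 56.9% and 21.1% in WT, or 22.7% ± 17.1 in KO and 34.1% ± 19.7 in WT (SD, n = 3 each, exact permutation p = 0.5). The libraries of 1 genotype differed more than the genotypes did.

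The same held for transport and sensing genes. Trf was covered to 12.4%, 40.4% and 21.3% in KO and 24.5%, 39.7% and 22.5% in WT (exact permutation p = 0.6). Slc40a1 was covered to 6.97%, 21.7% and 13.6% in KO and 10.4%, 23.4% and 11.96% in WT (exact permutation p = 0.8). In each of these genes replicate 2 was the highest library of both genotypes, and KO replicate 1, from the shortest list, the lowest. Tfrc lay between 6.51% and 10.965% in KO and 5.27% and 10.5% in WT (exact permutation p = 0.5), Tfr2 between 6.12% and 15.9% in KO and 10.199% and 15.9% in WT (p = 1, exact), and Hfe between 12.3% and 31.0% in KO and 17.8% and 25.2% in WT (exact permutation p = 0.8). Bmp6 had the least coverage of the 9, at 0.522%, 7.00% and 4.82% in KO and 0.801%, 7.58% and 1.62% in WT (exact permutation p = 1).

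Ferritin genes likewise overlapped between genotypes. Fth1 was covered to 8.82%, 19.996% and 14.9% in KO and 14.1%, 23.8% and 13.1% in WT, and Ftl1 to 12.3%, 28.9% and 17.6% in KO and 18.9%, 26.6% and 21.0% in WT (exact permutation p = 0.7 for each). The adjusted p was 1 for all 9 genes. At none of them did all 3 KO libraries lie below all 3 WT libraries, a pattern that 0.682% of genes showed, or above them, which 0.048% showed.

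Scara5, for which no test is given, was covered to 0.339%, 0.599% and 3.29% in KO and 7.12%, 1.56% and 4.96% in WT, or 1.41% ± 1.63 in KO and 4.55% ± 2.80 in WT (SD, n = 3 each). KO replicate 3 lay above WT replicate 2, so the genotypes overlapped. The difference of the means was -3.14 percentage points, KO minus WT, and -4.08 without KO replicate 3. Within the same-numbered pairs, 0.339% in KO stood against 7.12% in WT, 0.599% against 1.56% and 3.29% against 4.96%, so KO was lower in each. Of the other genes, Hamp was lower in KO in all 3 pairs and Tfrc higher, with a paired exact p of 0.25 for each, the smallest that 3 pairs allow. Over all genes 9.13% were lower and 2.11% higher in all 3 pairs. KO replicate 3 is the list with the most peaks, and of its 10 peaks at Scara5 none overlapped a lost C/EBPα region. Counted in bins of 1 kb, marked where peaks cover at least 500 bp, Scara5 had 1, 0 and 4 marked bins in KO and 9, 2 and 6 in WT, of 149. No bin at any of the 10 genes was lost, that is marked in no KO list and all 3 WT lists, or gained. Scara5 had 0 bins marked in all 3 WT lists and 0 in all 3 KO lists, so none there could be called. The other 9 genes had 1 (Bmp6) to 12 (Trf) bins marked in all 3 WT lists. Over the genome 2.01% of bins marked in all WT lists were lost and 0.175% of bins marked in all KO lists were gained, and 5.07% and 0.426% of genes with such a bin had at least 1 lost or gained bin. The other 9 genes had between 1 bin (Bmp6) and 6 bins (Trf) marked in all 6 lists, and Scara5 had 0. Stellate cell and fibroblast markers with H3K4me2 at their start were 1 to 4 of 6 in KO and 3 to 5 of 6 in WT. Endothelial markers with it were 0 to 5 of 5 in KO and 2 to 5 of 5 in WT. For biliary markers it was 1 to 3 of 5 in KO and 3 of 5 in WT. For Kupffer cell and leukocyte markers it was 0 to 2 of 6 in KO and 0 to 1 of 6 in WT. Libraries of the same genotype differed, as KO list 1 marked no endothelial marker and KO list 2 marked all of them. No direction by genotype is read from these ranges. The part of any of these cell types in the Scara5 values was not tested. None of the 6 stellate cell and fibroblast markers had a C/EBPα peak at its start in any list. Neither did 2 of the 7 hepatocyte markers, nor Scara5 at either gene end. The lost regions of Scara5 lie inside the gene, so nothing is read from this for Scara5.

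**Figure D5:**
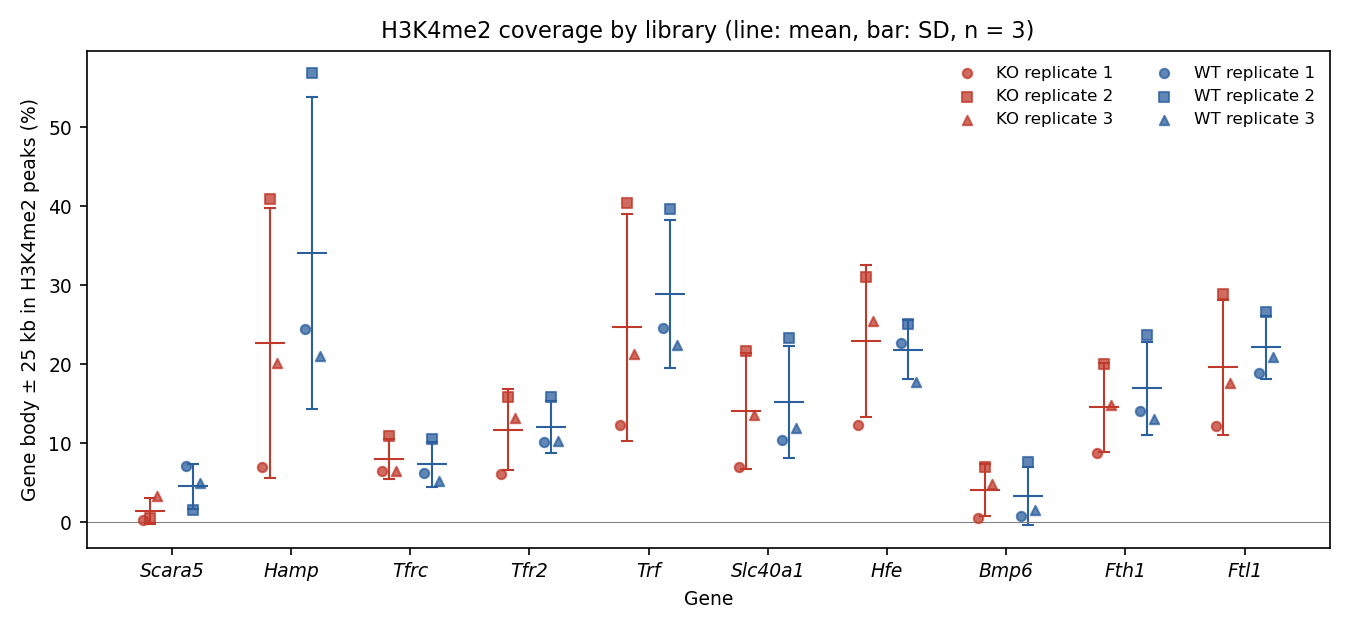
Share of each gene body plus 25 kb on each side lying in H3K4me2 peaks, in percent, with KO libraries in red left of WT libraries in blue, 1 point per library and marker shapes for replicates 1, 2 and 3. Lines and bars give mean and SD (n = 3), and the bars overlap between genotypes at all 10 genes. At Scara5 the means are 1.41% in KO and 4.55% in WT.

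ARID1A had 16 peaks at the 10 genes, 4 at Scara5 and 12 at 6 of the other 9, where 20.2% of all protein-coding genes have at least 1. Trf had 6, Slc40a1 2, and Tfrc, Tfr2, Bmp6 and Ftl1 1 each, while Hamp, Hfe and Fth1 had none. Of the 12, 10 lay on a C/EBPα region, again without the share over all V5 peaks. An ARID1A peak overlapped 7 of the 22 regions present in all 4 lists, beside 30.9% of such regions over the genome. The 2 peaks on no C/EBPα region, chr9:103241196-103241562 and chr9:103243657-103244039, both lay beyond the high-coordinate end of Trf.

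A further list of 47 genes of iron and haem handling, all found in the annotation, gave the wider pathway. It had 88 regions in both WT lists, of which 10 were lost (11.4%, against 19.3% over the genome), and 85 in both KO lists, of which 7 were gained (8.24%, against 5.27%). A region present in all 4 lists stood at 31 of the 47 genes, 69 regions in all, and the median number of lost regions was 0 per gene, as it was over all genes. None of these 47 genes, 32 of which had a region in both WT lists, had more than 1 lost region. Of the 9949 genes in the genome with such a region, 7253 had 0 lost regions and 2218 had 1, so few had more. Scara5, with 7, was chosen for its losses.

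The 10 losses were spread over the pathway. Genes of the hepcidin branch with 1 lost region were Acvr1, a BMP type I receptor, and Atoh8, a BMP-induced transcription factor, and, named after their values were seen, Smad5, a signal transducer of BMP receptors, and Tmprss6, the protease that restrains hepcidin, whose lost region was chr15:78447085-78447555 inside the gene. In haem and plasma iron handling they were Cp, the ferroxidase ceruloplasmin (chr3:19989691-19990295, inside the gene), Hpx, the haem carrier haemopexin, Lrp1, its receptor, and Hmox1, the haem-degrading oxygenase (chr8:75102919-75103424, 2326 bp outside the gene). Ireb2, an iron regulatory protein, had 1 as well. Slc11a2, the iron transporter DMT1, had 1 lost and 1 gained region. Gained regions further stood at Bmpr1a, another BMP type I receptor, Slc39a14, an importer of iron not bound to transferrin, and Pcbp1 and Pcbp2, which encode iron chaperones. Smad1 and Timd2, a ferritin receptor of the mouse, named after their values were seen, had 1 gained region each.

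H3K4me2 bins were lost at 3 of the 47 genes and gained at none, where 5.07% and 0.426% of genes with such bins were over the genome. Lcn2, which encodes the siderophore-binding lipocalin, had 2 lost bins, and Aco1, the other iron regulatory protein, and Ncoa4, which brings ferritin to lysosomes, had 1 each, named after their values were seen. That makes 0 gained of 162 bins marked in all 3 KO lists and 4 lost of 267 bins marked in all 3 WT lists, beside 0.175% and 2.01% over the genome. ARID1A peaks numbered 31 at 16 of these genes, beside 20.2% of all genes with at least 1. None of the 10 lost C/EBPα regions overlapped one, which is near the 6.08% of lost regions that did over the genome. None of the 7 gained regions did either, and the share of gained regions over the genome is not given here.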

How the data were processed

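The submitters' processing notes list MACS2 2.0.10.20131216, HOMER, Picard and Bowtie2 2.2.3, with no roles, and the build mm10. The C/EBPα and V5 lists were deposited as chromosome, start, end and peak name, with no strength, and hold 40.0% to 40.1% of their highest peak number, so part of an earlier list was left out by a rule not given in the sources used here. Each H3K4me2 peak was deposited with a score, a fold over background (a ratio) and −log10 values of p and q, and the lowest −log10 q was 1.00 to 1.02. Peaks were called per library, 1 list each, and the 10 input samples were not used. Read depth is unknown.

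Peak positions were compared as merged C/EBPα regions (at least 1 bp shared) and as 1 kb H3K4me2 bins (marked with at least 500 bp), with Python 3.11.15, pandas 2.3.3 and scipy 1.17.1. Peak width gave the rank in a C/EBPα list. Covered shares of H3K4me2 were tested for every gene with exact permutation tests over libraries, tested on simulated data first. Gene coordinates came from RefSeq GRCm38.p6, which gives no strand here; starts came from the RefSeq promoter table where it has the gene, and otherwise either gene end was used for markers. The members and lists were chosen with earlier results of these data known. All 10 members are named, the 5 genes with the most lost regions, and up to 12 of the other iron genes with a lost or gained region or bin, by number of regions and then bins; 7 more of these are named as chosen after their values were seen.

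Same-numbered H3K4me2 libraries deviated together over genes (r = 0.712, 0.851 and 0.401), so the numbers were taken as pairs, although KO replicate 1 correlated almost as well with WT replicate 3 (0.703). For C/EBPα the value was 0.0216, and the numbers were not taken as pairs. Alternatives were other window sizes, stricter peaks, lists cut to equal length, another merging rule and each library left out.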

Additional observations from a re-analysis of the deposited data

How the results depend on the processing

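The 7 losses at Scara5 became 5 with the 16178 widest peaks of each C/EBPα list (all among the 7) and 4 without peaks narrower than 395 bp, the median over the 4 lists. Of those 4, 3 were among the 7 and 1 was new, at 65773162. Without 1 library there were 7 to 9. Leaving out a list only relaxes the rules for a loss or a gain. The 7 therefore stay by construction, counts without 1 library cannot fall, and this setting is no check of the 7. For the other 9 genes, losses rose to 2 with windows of 50 kb (Bmp6 added) and 2 with lists of equal length, and gains to 1 and 1 there and 2 without the narrower peaks, where Fth1 was no longer lost and Tfr2 was. Without 1 library losses were 1 to 4, the highest without WT replicate 1, and gains 0 to 5, the highest without WT replicate 2 (Trf 2, Tfrc, Hfe and Fth1 1 each). Gains at Scara5 stayed at 0 in each case. Of its 4 ARID1A peaks, 1 was at least as wide as the median V5 peak.

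H3K4me2 bins lost at Scara5 were 0 to 4 without 1 library (4 without WT replicate 2). For bins too, leaving out a list can only keep or raise the counts. At the other 9 genes bins lost were 1 with any overlap, 3 with lists of equal length and 0 to 7 without 1 library (7 without KO replicate 2), and bins gained 0 to 2 (2 without KO replicate 1). The difference in covered share, KO minus WT in percentage points, changed sign at Tfrc (-1.49 with 50 kb windows, -1.01 with −log10 q at or above the median of 1.88, -0.784 with lists of equal length), Hfe (-4.20 with the higher −log10 q, -3.82 with equal length), Bmp6 (-0.649 and -0.543 in those settings) and Slc40a1 (0.121 with 50 kb). Without 1 library it ran between -0.810 and 2.27 at Tfrc, -2.44 and 2.46 at Tfr2, -12.1 and 1.96 at Trf, -4.97 and 2.88 at Slc40a1, -2.98 and 6.37 at Hfe, -0.662 and 2.90 at Bmp6, -5.14 and 0.952 at Fth1, -7.20 and 1.13 at Ftl1, -20.5 and -0.0732 at Hamp and -4.63 and -1.85 at Scara5. For C/EBPα the covered share changed sign at Tfrc (0.498 with 10 kb) and Fth1 (0.0488 with 50 kb), and without 1 library ran between -0.0102 and 2.09 at Hfe and -0.555 and 0.227 at Fth1. The cause of these changes was not tested. Exact permutation p ran between 0.2 and 1 over all settings. With the replicate number as a block, the paired exact p was 0.25 to 1 (0.25 is the smallest possible). The Hamp difference of -11.4 is the same by construction with and without pairs. Neither test can reach 0.05, so no call could change and this setting says nothing about robustness.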
